A study of Homo sapiens with 9 samples.

Results

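MDM2, ZMAT3, BTG2, SESN1, GDF15, BBC3 and BAX are 7 genes that the tumour suppressor p53 is known to switch on, and their transcripts were measured here in SUIT2 cells, a long-established line from a human pancreatic cancer, left without or given interferon beta. They were taken by symbol from a table of 59609 genes, and all 7 passed the filter on low counts, as did 16964 genes in all. They were chosen by their place in the p53 pathway and selected on their log2 fold changes in all 3 comparisons between the groups, so their own values are given as a description and no p is printed for them.

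The 9 RNA sequencing libraries formed 3 groups of 3: control, interferon beta at 100 U/mL for 6 h and interferon beta at 100 U/mL for 24 h. How long control wells were kept is not in the labels, so time in culture and interferon cannot be told apart. All groups are the same cell line. Nothing says that the libraries of a group came from separate cultures, so the standard errors and p-values measure the spread between these libraries, which may be technical.

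p53 is a transcription factor that stress stabilizes and that then raises genes for cell cycle arrest, DNA repair, metabolism and cell death. MDM2, itself a target, encodes the ubiquitin ligase that marks p53 for destruction and so closes a feedback loop. Many of these genes also answer to other factors without p53.

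Promoter windows of 3 members are shown here because they hold a match to a p53 or an interferon motif. Each runs from 250 bases before to 50 bases after a start site, 5′ to 3′ on the strand of the gene, from RefSeq on GRCh38.p14. The table held 13 start sites for the 7 genes. Capitals mark the match: in MDM2 (chr12:68808767-68809066, plus strand) a p53 full site of 20 bases, in SESN1 (chr6:109008939-109009238, minus strand) a p53 half-site, and in BBC3 (chr19:47232618-47232917, minus strand) a pair of overlapping matches to the interferon-stimulated response element.
MDM2: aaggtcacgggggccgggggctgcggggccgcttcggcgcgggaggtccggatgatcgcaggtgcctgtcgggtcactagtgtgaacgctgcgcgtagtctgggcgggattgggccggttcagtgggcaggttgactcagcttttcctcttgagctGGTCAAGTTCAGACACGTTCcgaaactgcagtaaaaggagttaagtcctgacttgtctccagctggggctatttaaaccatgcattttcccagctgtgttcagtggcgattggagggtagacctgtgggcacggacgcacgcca
SESN1: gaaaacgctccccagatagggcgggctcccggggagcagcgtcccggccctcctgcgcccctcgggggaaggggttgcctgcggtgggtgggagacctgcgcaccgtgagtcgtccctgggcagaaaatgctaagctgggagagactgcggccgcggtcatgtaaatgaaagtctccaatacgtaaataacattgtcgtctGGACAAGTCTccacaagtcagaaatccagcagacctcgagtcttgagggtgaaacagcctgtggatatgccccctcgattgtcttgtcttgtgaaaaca
BBC3: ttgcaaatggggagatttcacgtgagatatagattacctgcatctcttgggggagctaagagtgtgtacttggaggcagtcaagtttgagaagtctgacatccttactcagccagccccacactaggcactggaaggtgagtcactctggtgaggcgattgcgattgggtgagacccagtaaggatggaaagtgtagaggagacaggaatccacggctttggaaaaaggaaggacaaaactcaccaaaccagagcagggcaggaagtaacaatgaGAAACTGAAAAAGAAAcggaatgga
The full site allowed at most 2 mismatches to the p53 consensus, with its 4 core bases kept. It lay at positions -94 to -75 from the MDM2 start of the window shown. The same site lay at positions -101 to -82 from another MDM2 start, and the remaining MDM2 windows held none. Such a site was found in 0.285% of all 35116 promoter windows, in 2 of the 13 member windows and in 6 of 50 windows of other p53 targets. By gene, that is 1 of the 7 members and 6 of 36 other targets with a window, among them FAS, AEN, DDB2 and GLS2. The half-site, by exact consensus on both strands, lay at positions -49 to -40 in SESN1 and in 6.63% of all windows. The response element, searched by its core letters on both strands, lay at positions 26 to 35 and 32 to 41 in BBC3, after the start, and in 3.57% of all windows. The gamma-activated motif TTCNNNGAA was in 0 of the 13 windows and in 7.66% of all windows. A match is a run of letters and was not shown to be bound here.

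Total estimated counts per library ran from 15101664 to 19632685 for control libraries, between 16799161 and 37420357 at 6 h, and between 25270314 and 40384332 at 24 h. Levels are in CPM, a gene's counts scaled to the same total in every library, with TMM scaling factors, and differences are log2 fold changes from edgeR's quasi-likelihood fit over all 9 libraries, with standard errors (SE). Each SE was derived from the test, as the size of the log2 fold change over the square root of the F statistic. The spread of a gene in that test also draws on the other genes. Genes passed at an adjusted p under 0.05 over all 16964 genes. All 8 ductal epithelial markers were at 1 CPM or more in every library. Of 12 markers of leukocytes, fibroblasts, endothelium and acinar cells, 4 had 0 counts in each group, PTPRC, CD3E and CPA1 in all 3. The sum of the 12 ran from 226 to 232 CPM for control libraries, between 256 and 270 at 6 h, and between 320 and 343 at 24 h, nearly all of it LYZ, and its part in the results was not tested. As a check of the treatment, MX1, an interferon-induced antiviral GTPase gene, went from 12.5 ± 3.31 to 2019.8 ± 10.6 CPM at 6 h and 954.5 ± 30.3 CPM at 24 h (mean ± SD, n = 3 each). The edgeR log2 fold changes of MX1 were 7.34 (SE 0.089, adjusted p = 2.67e-18) and 6.26 (SE 0.088, adjusted p = 4.72e-17).

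The first question is what the 7 genes did in the early response. At 6 h ZMAT3, BTG2, GDF15 and BAX were lower than in control, MDM2 and BBC3 were higher, and SESN1 overlapped control. The 6 calls are of 7 members, in a comparison where 32.9% of all tested genes passed (17.5% higher and 15.4% lower). At 24 h GDF15 and BBC3 were higher and ZMAT3 and BAX lower by the same rule, while MDM2, BTG2 and SESN1 did not pass. That is 4 of 7 members, where 50.0% of all tested genes passed (24.7% higher and 25.3% lower). Between 24 h and 6 h ZMAT3, BTG2, GDF15 and SESN1 were higher at 24 h and MDM2 was lower, 5 of 7 members where 57.2% of all genes passed (26.6% higher and 30.6% lower). The members were chosen with these contrasts in view, so nothing is read from these counts. Groups did not overlap in 6 of 7 members in each comparison, where that held for 42.1%, 60.0% and 62.2% of tested genes at 6 h, at 24 h and between the times. Both comparisons with control share the same 3 control libraries. The balance of calls over all genes differed between settings: 53.2% of calls were higher at 6 h, against 21.2% with library sizes alone and 88.4% with limma on the deposited normalized table, where scaling and test both differ, and at 24 h the shares were 49.5%, 64.1% and 96.4%. The median of all genes moved with it, from -0.0053 to -0.14 and 0.13 at 6 h and from 0.0048 to 0.082 and 0.37 at 24 h.

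**Figure D1:**
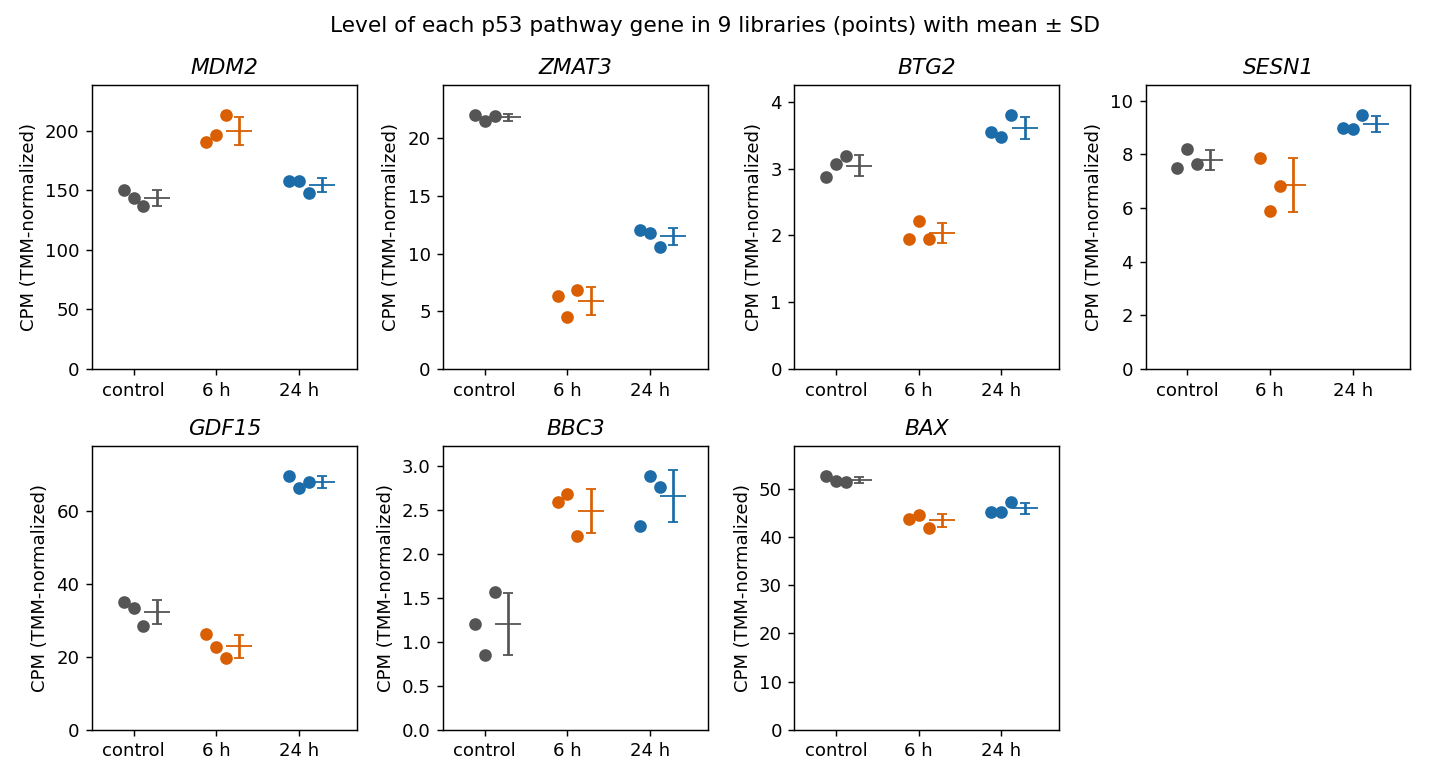
Level of each gene in CPM with TMM factors (linear axis from 0) in 3 control, 3 6 h and 3 24 h libraries. Points are libraries, and the bar beside them is the mean ± SD; ZMAT3 falls from about 21.8 to 5.87 CPM at 6 h and GDF15 stands at 68.0 CPM at 24 h.

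ZMAT3 encodes an RNA-binding zinc finger protein that acts in splicing and mRNA stability and is known as a tumour suppressor downstream of p53 (chromosome 3, 178960121 to 179072215, minus strand). Its level was 22.0, 21.5 and 22.0 CPM in the control libraries, 6.29, 4.48 and 6.83 CPM at 6 h, and 12.1, 11.8 and 10.6 CPM at 24 h. No library of one group reached into another, so the order was control, then 24 h, then 6 h. The log2 fold change was -1.87 (SE 0.11) at 6 h, a level 3.66-fold lower, and -0.92 (SE 0.096) at 24 h, 1.90-fold lower. From 6 h to 24 h it was 0.95 (SE 0.11), and the 24 h level remained below every control library. From the lowest, its log2 fold change ranked 21 of 16964 tested genes at 6 h and 405 at 24 h, which is a description since the member was picked with these values known. The counts behind it were 337 to 427 for control libraries, between 97 and 235 at 6 h, and between 318 and 520 at 24 h. At its low-coordinate end, the 3′ end of this minus-strand gene, the deposited model of ZMAT3 reaches 57102 bases past that of GENCODE release 29.

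MDM2 (chromosome 12, 68808177 to 68850686, plus strand) moved the other way at 6 h. It stood at 150.3, 144 and 137 CPM in control, 190.4, 197 and 213 CPM at 6 h, and 158, 158 and 148 CPM at 24 h. The 6 h libraries lay above all others, while the 24 h and control libraries overlapped. The log2 fold change was 0.48 (SE 0.046) at 6 h, 0.11 (SE 0.046) at 24 h and -0.38 (SE 0.044) from 6 h to 24 h. The 24 h difference did not pass, but it did under 12 of 21 alternatives, with values up to 0.55 in the deposited normalized table. Within each library the ratio of MDM2 to ZMAT3 in CPM does not depend on the scaling of that library. It was 6.83, 6.69 and 6.24 in control, 30.2, 44.0 and 31.2 at 6 h, and 13.1, 13.4 and 13.9 at 24 h, so the groups did not overlap.

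Reads of MDM2 can be shared with other features. A processed pseudogene on the same strand, AC025423.2, overlaps it by 439 bases and held 12.7 CPM in control, 16.9 CPM at 6 h and 13.5 CPM at 24 h. Carboxypeptidase M, whose gene symbol is CPM, overlaps it by 8490 bases on the other strand, at levels of 21.2, 17.4 and 6.07 in the same unit and order. Whether reads were counted by strand is not stated, and reads in the overlap cannot be told apart. In the other 6 genes, overlapping small RNA and lncRNA genes held at most about 1 count each, apart from Y_RNA, a symbol shared by many loci.

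In BTG2, SESN1 and GDF15 all 24 h libraries lay above all control libraries, though of these differences that of GDF15 alone passed. BTG2 encodes an antiproliferative protein that brings the CCR4-NOT deadenylase to mRNAs (chromosome 1, 203305491 to 203309602, plus strand). It stood at 2.88, 3.07 and 3.20 CPM in control, 1.95, 2.22 and 1.95 CPM at 6 h, and 3.56, 3.48 and 3.80 CPM at 24 h. The 3 groups did not overlap, and the order was 6 h, control, 24 h. The log2 fold change was -0.58 (SE 0.15) at 6 h, 0.25 (SE 0.13) at 24 h, which did not pass, and 0.83 (SE 0.13) from 6 h to 24 h. With 30 to 153 counts per library, BTG2 was among the thinly counted members. Its 6 h call was lost with DESeq2 and in the deposited normalized table, where the value was as small as -0.285.

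SESN1 encodes sestrin 1, a stress protein that restrains mTORC1 signalling (chromosome 6, 108986437 to 109094819, minus strand). It stood at 7.49, 8.21 and 7.63 CPM in control, 7.85, 5.87 and 6.83 CPM at 6 h, and 8.99, 8.93 and 9.45 CPM at 24 h. At 6 h the library at 7.85 CPM lay within the control range, and those at 5.87 and 6.83 CPM lay below it. The 24 h libraries lay above all others. Its log2 values were -0.20 (SE 0.11) at 6 h, 0.23 (SE 0.10) at 24 h and 0.43 (SE 0.098) from 6 h to 24 h, and of these the last passed.

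GDF15 encodes a secreted stress cytokine of the TGF-beta superfamily (chromosome 19, 18374731 to 18389176, plus strand). It stood at 35.0, 33.5 and 28.6 CPM in control, 26.2, 22.8 and 19.6 CPM at 6 h, and 69.6, 66.2 and 68.0 CPM at 24 h. The 6 h libraries lay below control and the 24 h libraries above it, with no overlap. On the log2 scale GDF15 differed by -0.54 (SE 0.089) at 6 h and 1.07 (SE 0.075) at 24 h, a level 2.10-fold higher. In the deposited table its 6 h value was as small as -0.327 and did not pass. From 6 h to 24 h it was 1.61 (SE 0.076), a 3.05-fold difference and the 259th highest value of the 16964 tested genes.

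BBC3 and BAX act in the mitochondrial death pathway. BBC3 encodes PUMA, a BH3-only protein that frees BAX and BAK1 from the survival proteins (chromosome 19, 47220822 to 47232766, minus strand). It was the scarcest of the 7, with 17 to 24 counts for control libraries, between 40 and 76 at 6 h, and between 78 and 102 at 24 h. Its level was 1.20, 0.856 and 1.57 CPM in control, 2.60, 2.68 and 2.21 CPM at 6 h, and 2.32, 2.89 and 2.77 CPM at 24 h. Both treated groups lay above control and overlapped each other. Its log2 values were 1.06 (SE 0.22) at 6 h and 1.16 (SE 0.21) at 24 h, 2.08-fold and 2.23-fold higher, and 0.10 (SE 0.17) between the times.

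BAX encodes the effector that forms pores in the outer mitochondrial membrane (chromosome 19, 48954815 to 48961798, plus strand). It stood at 52.7, 51.6 and 51.4 CPM in control, 43.9, 44.6 and 42.0 CPM at 6 h, and 45.3, 45.3 and 47.4 CPM at 24 h. Both treated groups lay below control. The log2 fold changes were small, -0.26 (SE 0.042) at 6 h and -0.17 (SE 0.040) at 24 h, and in the deposited normalized table the 6 h value, as small as -0.087, did not pass and the 24 h value changed sign, to 0.26. Between the times it was 0.085 (SE 0.039) and did not pass.

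**Figure D2:**
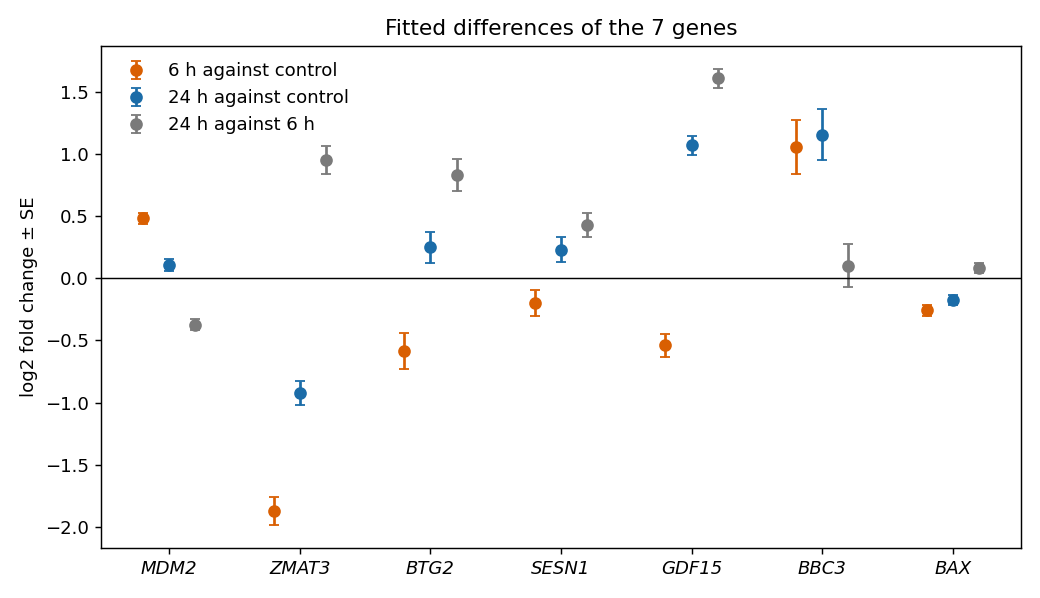
Log2 fold change (points) with its SE (bars) for the 7 genes in 3 comparisons, from 1 edgeR fit over 9 libraries. ZMAT3 has the lowest value at 6 h, -1.87, and GDF15 the highest from 6 h to 24 h, 1.61.

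Set on a scale per length of exon (CPM per kilobase of the exon union in GENCODE release 29), the 7 genes ranked differently in each group. In control the order was BAX at 20.1 ± 0.263, GDF15 at 15.5 ± 1.60, MDM2 at 10.8 ± 0.498, ZMAT3 at 2.26 ± 0.029, SESN1 at 1.52 ± 0.074, BTG2 at 1.11 ± 0.058 and BBC3 at 0.379 ± 0.111 (mean ± SD, n = 3). At 6 h ZMAT3 was last, at 0.608 ± 0.127, next to BTG2 at 0.739 ± 0.057 and BBC3 at 0.784 ± 0.079, and the libraries of these neighbours overlapped. At 24 h GDF15 was first, at 32.6 ± 0.807, ahead of BAX at 17.8 ± 0.477, and ZMAT3, at 1.19 ± 0.080, lay just below BTG2, at 1.31 ± 0.061. Lengths come from another annotation release than the counts, so these levels are approximate. In RNA from whole cultures, fewer cells that express a gene and less RNA per cell cannot be told apart.

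Among 11487 or 11488 genes with a mean of at least 5 CPM, those most like each member were found by the root-mean-square difference over the 9 libraries in log2 CPM, centred on the control mean. ZMAT3 had no close match: the nearest were GPATCH11 at 0.314, CASTOR2 at 0.356 and CERK at 0.452. GPATCH11 stood at 22.9, 7.97 and 14.3 CPM in control, at 6 h and at 24 h. CERK, the ceramide kinase, stood at 115, 25.8 and 37.5 CPM. MDM2 had close matches in STX12, CPNE8 and HDAC6, each within 0.038. GDF15 was nearest to the mucin-type glycosyltransferase gene GCNT3 (0.0986), then GPRC5C (0.101) and the epithelial transcription factor gene ELF3 (0.109). BTG2 was nearest to DGAT2 (0.0522), SESN1 to CTC1 (0.0457), BBC3 to LGMNP1 (0.161) and BAX to PTPN9 (0.0235). Among the members themselves the closest pairs were BTG2 with SESN1, at 0.260, and SESN1 with BAX, at 0.261.

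The wider pathway was read in 45 other direct p53 targets, of which 43 were tested. SPATA18 and EDA2R were too scarce. At 6 h 13 were higher, 9 lower and 21 did not pass, with a median log2 fold change of -0.0055 against -0.0053 over all tested genes. With library sizes alone as scaling the split was 9 higher and 21 lower, and 7 and 1 in the deposited normalized table. At 24 h 15 were higher, 15 lower and 13 did not pass, with a median of -0.039 against 0.0048 (18 and 12 with library sizes alone, 22 and 2 in the deposited table). Between 24 h and 6 h 17 were higher and 17 lower, with a median of 0.019 against -0.019 (24 and 13, and 17 and 6). Of the list, 51.2%, 69.8% and 79.1% passed at 6 h, at 24 h and between the times. Over all tested genes the shares were 32.9%, 50.0% and 57.2%. So the other targets passed in both directions in each comparison. This list and those that follow were chosen with earlier results of these data known, so their shares and medians are a description.

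PMAIP1, the BH3-only protein NOXA, rose from 32.9 ± 0.187 to 65.2 ± 2.66 CPM, a log2 difference of 0.99 (SE 0.048, edgeR adjusted p = 1.67e-10), and did not pass at 24 h, at 0.11 (SE 0.049). FAS, a death receptor, rose by 0.84 (SE 0.051, edgeR adjusted p = 3.20e-09) at 6 h and was lower than control at 24 h, at -0.29 (SE 0.053, edgeR adjusted p = 0.000330). The TRAIL receptor gene TNFRSF10A had 0.43 (SE 0.041) at 6 h and -0.69 (SE 0.042) at 24 h, and the autophagy regulator gene DRAM1 0.53 (SE 0.076) and -0.26 (SE 0.077). In the deposited table the 24 h values of FAS and DRAM1 were 0.14 and 0.16 and did not pass.

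CDKN1A encodes p21, the inhibitor of cyclin-dependent kinases and a main arrest gene of p53. It stood at 71.7, 71.1 and 73.9 CPM in control, 109.5, 105 and 98.4 CPM at 6 h, and 30.4, 31.7 and 33.1 CPM at 24 h, so its groups did not overlap. Its log2 fold change was 0.52 (SE 0.045, edgeR adjusted p = 1.68e-07) at 6 h and -1.19 (SE 0.048, edgeR adjusted p = 1.57e-11) at 24 h. GDF15 and CDKN1A thus lay on opposite sides of control at each time. PLK2, a polo-like kinase target, also fell at 24 h, at -0.73 (SE 0.045), as did PLK3, at -0.74 (SE 0.087), and PHLDA3, an inhibitor of AKT, at -1.52 (SE 0.29). PHLDA3 was scarce, at 1.62, 3.52 and 2.28 CPM in control and 0.72, 1.19 and 0.79 CPM at 24 h. It was already lower at 6 h, at -0.98 (SE 0.29).

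Other targets rose at 24 h. GLS2, a mitochondrial glutaminase, rose from 0.948 ± 0.320 to 2.19 ± 0.202 CPM at 24 h, a log2 difference of 1.19 (SE 0.24, edgeR adjusted p = 0.000665), and was at -0.31 (SE 0.29) at 6 h. TP53INP1, a stress-induced regulator of autophagy and p53, had 0.96 (SE 0.18) at 24 h, and CYFIP2, a WAVE complex subunit, 0.82 (SE 0.20). TP53INP1 and CYFIP2 were scarce, at 1.36 ± 0.280 and 1.32 ± 0.314 CPM in control. ABHD4, a lipid hydrolase, fell by 0.56 (SE 0.11) at 6 h on the log2 scale and rose by 0.41 (SE 0.10) at 24 h. The repair genes DDB2 and XPC rose by 0.51 (SE 0.097) and 0.20 (SE 0.047) at 24 h, and XPC was lower at 6 h, at -0.28 (SE 0.051).

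**Figure D3:**
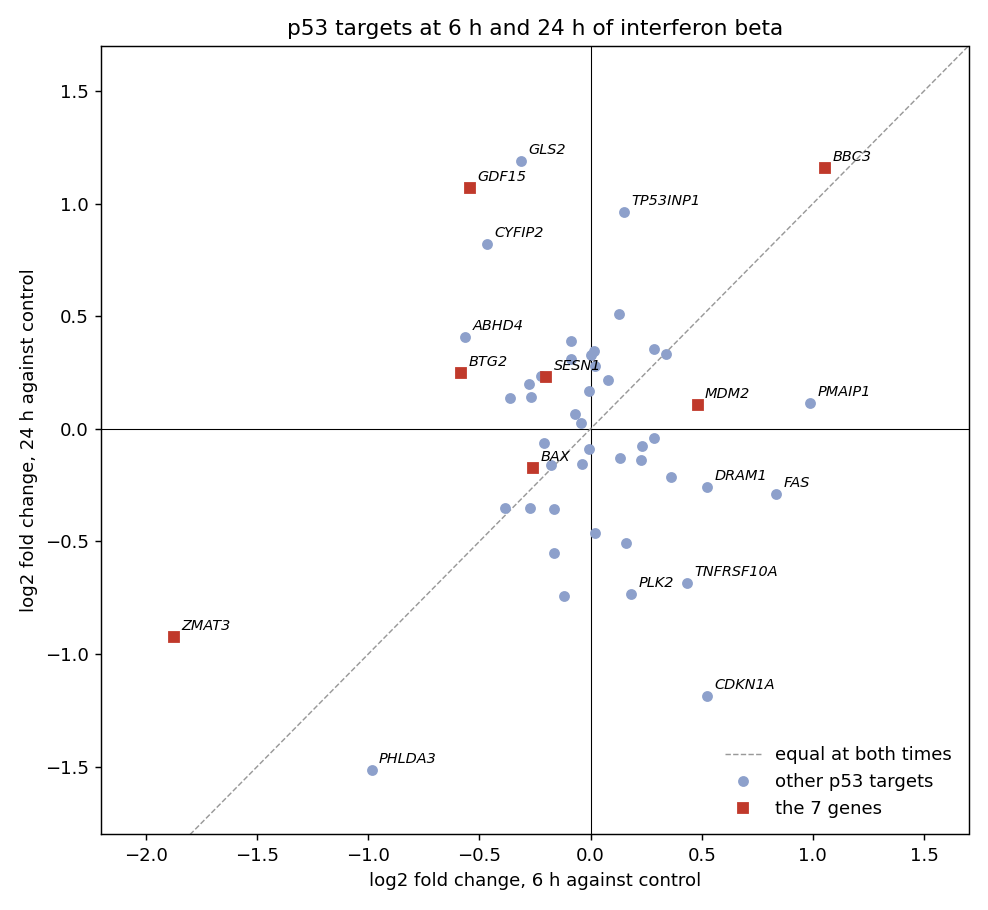
Log2 fold change at 6 h (x) and at 24 h (y), both against the same 3 control libraries, for the 7 genes (red squares) and 43 other p53 targets (blue points); the dashed line marks equal values. ZMAT3 lies at -1.87 and -0.92, GDF15 at -0.54 and 1.07, and CDKN1A at 0.52 and -1.19.

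Upstream of the members, MDM4, the MDM2 relative that holds p53 inactive, did not pass in any comparison, with 0.051 (SE 0.085) at 6 h and 0.11 (SE 0.081) at 24 h. TP73, a p53 relative that binds many of the same sites, did not pass at 6 h and rose from 20.1 ± 1.73 to 36.0 ± 1.31 CPM at 24 h, with 0.85 (SE 0.061, edgeR adjusted p = 1.48e-08). TP63, the other relative, had at most 4 counts in a library and was not tested.

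Of 19 regulators of p53, 18 were tested, with 2 higher, 5 lower and 11 not passed at 6 h and 5, 7 and 6 at 24 h. That is 38.9% passing at 6 h and 66.7% at 24 h, where 32.9% and 50.0% of all tested genes passed. The median log2 fold changes were -0.026 and -0.066, against -0.0053 and 0.0048 over all tested genes. With library sizes alone the splits were 1 and 12 at 6 h and 5 and 5 at 24 h, and 1 and 0, and 9 and 1, in the deposited values. PML, the nuclear body protein that activates p53 and is itself interferon-induced, rose from 45.8 ± 0.970 to 349 ± 8.64 CPM at 6 h and stood at 127 ± 4.52 CPM at 24 h. USP7, the deubiquitinase of MDM2 and p53, was lower at both times, at -0.24 (SE 0.038) and -0.23 (SE 0.037). In the deposited table its 24 h value was 0.20 and did not pass. HIPK2, a kinase that phosphorylates p53, fell to 176 ± 5.42 CPM at 24 h from 318 ± 18.6 CPM, at -0.86 (SE 0.051, edgeR adjusted p = 1.61e-09). PPP1R13L, which encodes the p53 inhibitor iASPP, was at 0.0018 (SE 0.052) at 6 h and fell at 24 h, at -0.66 (SE 0.052).

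The partners of BBC3 and BAX in the BCL2 family were read in 13 genes, of which 10 were tested. At 6 h 4 were higher, 3 lower and 3 did not pass, and at 24 h 3, 4 and 3. That is 70% passing at each time, where 32.9% of all tested genes passed at 6 h and 50.0% at 24 h. The median log2 fold changes were -0.12 and -0.16, against -0.0053 and 0.0048 over all tested genes. With library sizes alone the 6 h split was 4 and 6, and in the deposited values 3 and 1 at 6 h and 3 and 0 at 24 h. BAK1, the other pore-forming effector, rose from 42.9 ± 1.42 to 165 ± 1.39 CPM at 6 h, a 3.85-fold change with 1.95 (SE 0.036, edgeR adjusted p = 3.83e-16), whereas BAX was lower. At 24 h BAK1 was at 50.4 ± 0.947 CPM, a log2 fold change of 0.24 (SE 0.038). BCL2L11, the BH3-only protein BIM, rose by 0.97 (SE 0.059) and 0.50 (SE 0.059) at the 2 times, and BIK, another BH3-only gene, fell at 6 h, at -0.85 (SE 0.10).

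The survival genes MCL1 and BCL2L1 rose at 6 h and were lower at 24 h. MCL1 had 0.40 (SE 0.028) and -0.49 (SE 0.028), and BCL2L1, which encodes BCL-XL, had 0.23 (SE 0.026) and -0.25 (SE 0.026). In the deposited table the 24 h value of BCL2L1 was 0.18 and did not pass. The ratio of BAX to BCL2L1 in CPM within a library, which does not depend on scaling, was 0.0757 to 0.0777 for control libraries, between 0.0547 and 0.0549 at 6 h, and between 0.0797 and 0.0837 at 24 h. BCL2 itself did not pass in any comparison, with -0.27 (SE 0.13) and -0.21 (SE 0.12). The survival gene BCL2L2 was lower at both times, at -0.18 (SE 0.060) and -0.30 (SE 0.057), with its 24 h value at 0.13 in the deposited table.

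**Figure D4:**
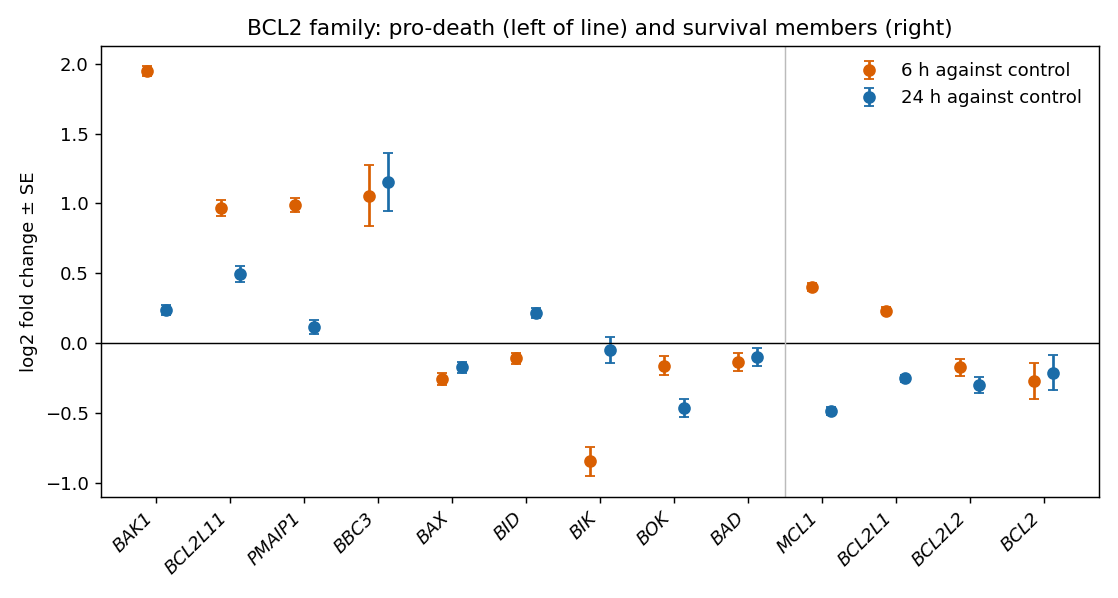
Log2 fold change (points) with its SE (bars) at 6 h and 24 h against control for BBC3, BAX, PMAIP1 and 10 other BCL2 family genes. BAK1 is highest at 6 h, at 1.95, and BAX lies below 0 at both times.

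Relatives of the members by family were also read, 14 genes of which 10 were tested. At 6 h 3 were higher, 4 lower and 3 did not pass, and at 24 h 3, 1 and 6. That is 70% passing at 6 h and 40% at 24 h, where 32.9% and 50.0% of all tested genes passed. The median log2 fold changes were 0.043 and 0.096, against -0.0053 and 0.0048 over all tested genes. In the deposited table the splits were 1 and 1, and 8 and 0, and without control library 2 the 6 h count was 4. SESN3, the sestrin known as a FOXO target, fell from 18.2 ± 0.141 to 9.60 ± 0.982 CPM at 6 h, with -0.90 (SE 0.082, edgeR adjusted p = 3.61e-07), and rose to 22.1 ± 1.33 CPM at 24 h, with 0.28 (SE 0.070, edgeR adjusted p = 0.00383). SESN2, the stress-induced sestrin, was lower at 6 h, at -0.36 (SE 0.097), and did not pass at 24 h, at 0.14 (SE 0.089). BTG1 was lower at 6 h, at -0.14 (SE 0.040), and higher at 24 h, at 0.12 (SE 0.038), with its 6 h value at 0.022 in the deposited table. TOB1, another antiproliferative gene of the BTG family, was higher at both times, at 0.68 (SE 0.047) and 0.77 (SE 0.047). ZMAT5 did not pass in any comparison, with 0.090 (SE 0.11) and 0.046 (SE 0.11), and ZMAT2 was higher at 6 h, at 0.12 (SE 0.039), but stood at -0.018 with library sizes alone.

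Cell cycle genes that p53 is known to lower through p21 and the DREAM complex were the last list, 15 genes, all tested. At 6 h 3 were higher, 3 lower and 9 did not pass, with a median of -0.046 (1 and 11 with library sizes alone, 1 and 0 in the deposited table). At 24 h 1 was higher, 13 lower and 1 did not pass, with a median of -0.45 against 0.0048 over all genes (1 and 12, and 1 and 3). Of the list, 40% passed at 6 h and 93.3% at 24 h, where 32.9% and 50.0% of all tested genes passed. As the list was chosen with earlier results known, these shares are a description. PLK1, the mitotic kinase, fell from 342 ± 5.98 to 163 ± 5.18 CPM at 24 h, with -1.06 (SE 0.031, edgeR adjusted p = 2.46e-13), and CDC20, an activator of the anaphase-promoting complex, fell by 1.02 (SE 0.034) after a rise of 0.30 (SE 0.034) at 6 h. CCNB1, cyclin B1, fell by 0.85 (SE 0.031) at 24 h. CHEK1, the checkpoint kinase, was the gene that was higher, at 0.14 (SE 0.035).

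**Figure D5:**
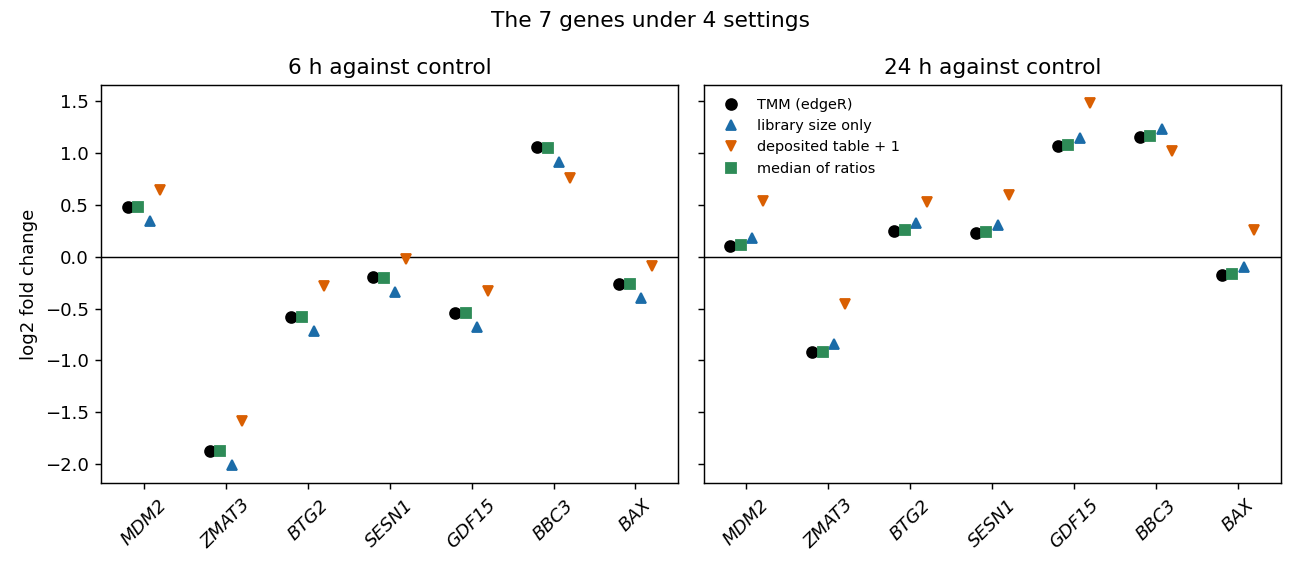
Log2 fold change of the 7 genes at 6 h (left) and 24 h (right) under TMM, median-of-ratios and library-size scaling and in the deposited normalized table with 1 added. ZMAT3 is below 0 and BBC3 above 0 under all 4, and BAX at 24 h is above 0 in the deposited table.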

How the data were processed

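RNA of 9 SUIT2 libraries, 3 per group, was read. The authors deposited estimated counts per gene that are not whole numbers, made from reads aligned with STAR 2.7.8a to hg38 and processed in Partek, per the submitters' processing notes. The authors also deposited a normalized signal per gene, with 1 multiplier per library, under a name that gives TMM and a small added constant. Annotation release, counting and strand settings: not given in the sources used here.

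Counts were rounded, scaled by TMM and tested with edgeR 4.0.16 (quasi-likelihood, R 4.3.3) in 1 fit over all 9 libraries, which leaves 6 residual degrees of freedom. Genes needed a count near 10 in 3 libraries and a total of 15. Adjusted p-values are Benjamini-Hochberg over 16964 genes, in a two-sided test, and the script was tested on simulated data. Alternatives were DESeq2 1.42.0, limma 3.58.1 with voom, other scalings and filters, the groups compared alone, a replicate block, each library left out, thinning, an adjusted p under 0.01, and limma on the deposited signal as log2 of value + 1 or 0.1.

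The 7 members and all gene lists were chosen with earlier results of these data known. Named genes are the members, up to 6 passing genes of largest change per list, direction and comparison, a fixed set of p53, sestrin, BTG and BCL2 relatives, genes that overlap a member, and the 3 genes nearest to each member in pattern. Library pairs of a group differed by more than sampling noise. Totals were 15101664 counts or more, and of the members BBC3 and BTG2 had the lowest counts. Some results are not reported here.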

Additional observations from a re-analysis of the deposited data

Results flagged for a closer look

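BTG2 and GDF15 had all 6 h libraries below and all 24 h libraries above the control libraries. The log2 fold change from 6 h to 24 h was 0.83 in BTG2 (-0.58 at 6 h and 0.25 at 24 h) and 1.61 in GDF15 (-0.54 and 1.07). Both were chosen with these values known, so the call of this difference in the fit is a description and independent data in which to test it were not used here.

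Among the other genes named here, 15 had values at both times that passed on opposite sides of control. They were picked for this, so a difference between the times follows from the choice and its values are a description. The lists hold further genes of this kind that are not named, and the share over all tested genes is not given here. Of the 15, 7 were no longer on opposite sides in the deposited normalized table, AEN, BCL2L1, DRAM1, ECT2 and FAS by their 24 h value and BID and BTG1 by their 6 h value. Higher at 6 h and lower at 24 h were CDKN1A, with a difference of -1.71, CDC20, with -1.31, FAS, with -1.13, TNFRSF10A, with -1.12, PLK2, with -0.91, and MCL1, with -0.89. Smaller differences of this direction were those of DRAM1 (-0.78), AEN (-0.57), BCL2L1 (-0.49) and ECT2 (-0.42). Lower at 6 h and higher at 24 h were SESN3, with 1.18, ABHD4, with 0.97, XPC, with 0.47, BID, with 0.32, and BTG1, with 0.26. Both times share the control libraries.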

How the results depend on the processing

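ZMAT3 kept its direction and its side of the threshold under all 21 alternatives in each comparison, as did BBC3 against control. Between the times BBC3 passed under none and went to -0.001 without 6 h library 3. Over the named genes 3824 values kept sign and side of the threshold, 215 no longer passed, 75 newly passed, 32 that passed in at least 1 fit changed sign, and 75 that passed in neither changed sign. Of the members, BBC3 and BTG2 had the lowest counts. In the deposited normalized table with 1 or 0.1 added, calls at 6 h were 1826 and 1854 over all genes, 3 and 3 of the members, 8 and 7 of the other p53 targets, 1 of the regulators, 4 of the BCL2 family, 2 of the relatives and 1 of the cell cycle genes. At 24 h they were 3 in the BCL2 family, 8 in the relatives and 4 in the cell cycle genes. Between the times they were 5849 and 5636 over all genes, 7 in the regulators, 4 in the BCL2 family and 3 in the cell cycle genes. With library sizes alone, 13 regulators and 12 cell cycle genes passed at 6 h. The cause was not tested.

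Of values that passed in at least 1 fit, sign changed at 6 h in the deposited table for BID (0.059 and 0.060), BTG1 (0.022 and 0.022) and TP53I3 (0.003 and 0.002), and with library sizes alone for CHEK1 (-0.016), KIF23 (-0.127), PPP1R13L (-0.138) and ZMAT2 (-0.018). At 24 h it changed in the deposited table for AEN (0.220 and 0.223), BAX (0.258 and 0.263), BCL2L1 (0.184 and 0.184), BCL2L2 (0.130 and 0.134), DRAM1 (0.160 and 0.177), ECT2 (0.181 and 0.182), FAS (0.144 and 0.148), TGFA (0.087 and 0.088) and USP7 (0.204 and 0.205). Between the times it changed for TGFA (0.142 with library sizes alone, 0.194 and 0.195 in the table) and ZMAT2 (0.153 with library sizes alone).

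With 1 library left out, calls among the relatives at 6 h ran from 4 to 7, with 4 without control library 2, among the other targets from 16 to 21, and among the members from 6 to 6 at 6 h, 4 to 5 at 24 h and 5 to 6 between the times. Over all genes they ran from 4722 to 5489, 7497 to 8981 and 8847 to 9739.

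Libraries with the same number did not deviate together over all tested genes (correlations of -0.105 to 0.0386). These correlations take in weakly counted genes, so they cannot exclude a pairing by number, which the labels do not state. With the replicate block, calls at 6 h, at 24 h and between the times were 5149, 8133 and 9393 over all genes, 6, 4 and 5 of the members, 20, 30 and 33 of the other targets, 7, 12 and 14 of the regulators, 6, 7 and 8 of the BCL2 family, 7, 4 and 6 of the relatives, and 5, 13 and 12 of the cell cycle genes.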
